A study of Nicotiana tabacum with 18 samples.

Results

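TPC1 and TPK are K+-permeable channels of the tonoplast, the membrane around the plant vacuole. The 4 tobacco genes described here are the 2 TPC1 genes Nitab4.5_0004344g0030 and Nitab4.5_0000512g0020 and the 2 TPK genes Nitab4.5_0005906g0010 and Nitab4.5_0003491g0060. They are 4 of the 69500 genes in the table of values, and they were chosen by identifier and name, without a rule on their values. The names are those of the paper's list of K+ genes, since the files carry identifiers alone. Both crosses used GDH11 as male parent. In the G70 cross, HP1 was the female parent G70, HP2 was GDH11 and H was the F1 hybrid G70×GDH11. In the K326 cross, LP1 was the female parent K326, LP2 was GDH11 and L was the F1 hybrid K326×GDH11. Middle leaves of untreated field plants, 70 days after transplanting, gave 18 bulk RNA-seq libraries, 3 in each of the 6 groups, and the GDH11 libraries of each cross were separate. The study set a hybrid with strong heterosis of leaf K+ content (H) against one with weak heterosis (L), heterosis being the advantage of a hybrid over its parents. Leaves of several plants were mixed, so neither single plants nor single cell types were resolved.

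The vacuole is the main K+ store of a leaf cell. In Arabidopsis, TPC1 carries the slow vacuolar current, a cation current through a channel that opens with voltage and cytosolic calcium and that lets K+, sodium and calcium pass. The tandem-pore TPK channels select K+ much more strongly and release it from the vacuole. NHX1 antiporters work the other way and load K+ or sodium into the vacuole in exchange for protons. Tobacco is allotetraploid, so that many of its genes have a close partner from the other ancestral genome. Here the 2 genes of a name are called a pair, and whether they are such partners is not annotated.

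Levels are given as FPKM, the fragments of a gene scaled for transcript length and for the fragments of the library, a unit in which different genes may be compared. In the 18 libraries the sum of FPKM was between 756862 and 818037, and from 27527 to 33091 genes had at least 1 FPKM. A pair of features of the libraries touches the results below. LP2 replicate 2 had the fewest genes with at least 1 FPKM and the highest share of genes listed at 0 (44.0%). In the G70 cross, the first principal component of log2(FPKM + 1), computed without the K+ genes named by the study, held 51.2% of the variance and did not follow the groups. HP1 replicate 1 (90.8), H replicates 1 and 2 (66.5 and 65.8) and HP2 replicate 1 (60.9) were on its positive side. HP1 replicates 2 and 3 (-53.3 and -47.4), H replicate 3 (-75.8) and HP2 replicates 2 and 3 (-45.4 and -62.1) were on the negative side. HP1 replicate 1, H replicate 3 and HP2 replicate 1, each on the other side from the rest of its group, are called the libraries set apart. They are also absent from the RNA-seq values that the study listed beside its qRT-PCR, and what was found in the G70 cross is reported with and without them. No labelled batch or sampling date was found for this split, and leaf marker genes could not be checked because the files pair no identifiers with marker names.

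The TPC1 genes were expressed at higher levels than the TPK genes. Over all libraries the mean was 15.5 FPKM for TPC1 Nitab4.5_0004344g0030 and 19.9 FPKM for TPC1 Nitab4.5_0000512g0020, against 6.13 FPKM for TPK Nitab4.5_0005906g0010 and 5.48 FPKM for TPK Nitab4.5_0003491g0060. All 4 genes reached 1 FPKM in every library and so passed the filter on low values (1 FPKM or more in 3 or more libraries), and none was listed at 0 in any library. The TPC1 pair together exceeded the TPK pair in each of the 18 libraries.

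TPC1 Nitab4.5_0004344g0030 stood at 13.07, 18.43 and 13.78 FPKM in HP1, at 14.27, 13.93 and 17.98 in H, and at 14.26, 17.9 and 15.71 in HP2 (replicates 1, 2 and 3, the order used throughout). In the K326 cross it stood at 15.55, 13.13 and 16.55 FPKM in LP1, at 22.18, 13.44 and 16.49 in L, and at 19.81, 3.97 and 17.61 in LP2. All groups overlapped, and the lowest value by far was that of LP2 replicate 2. The group means ran from 17.4 ± 4.44 FPKM in L (SD, n = 3) over HP2, H, HP1 and LP1 to 13.8 ± 8.58 FPKM in LP2 (SD, n = 3), and no neighbours in this order were separated.

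TPC1 Nitab4.5_0000512g0020 stood at 11.23, 21.66 and 17.86 FPKM in HP1, at 17.94, 18.76 and 23.41 in H, and at 18.95, 21.17 and 21.26 in HP2. In the K326 cross it stood at 18.42, 26.69 and 20 FPKM in LP1, at 27.81, 20.13 and 21.78 in L, and at 21.59, 10.46 and 18.95 in LP2. Again LP2 replicate 2 was the lowest library, followed by HP1 replicate 1, and the values of neighbouring groups overlapped throughout. The group means ran from 23.2 ± 4.04 FPKM in L (SD, n = 3) over LP1, HP2, H and LP2 to 16.9 ± 5.28 FPKM in HP1 (SD, n = 3).

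TPK Nitab4.5_0005906g0010 stood at 2.62, 9.06 and 11.04 FPKM in HP1, at 2.5, 2.44 and 10.69 in H, and at 2.82, 6.25 and 10.66 in HP2. Each group of the G70 cross thus held both low libraries (2.44 to 2.82 FPKM) and high ones (6.25 to 11.04 FPKM), with nothing between. In the K326 cross it stood at 7.74, 10.87 and 5.71 FPKM in LP1, at 9.2, 3.42 and 3.66 in L, and at 5.13, 3.42 and 3.07 in LP2. There the values of LP1 all lay above those of LP2, as in 9% of the 33493 genes tested, and L overlapped with both. The group means ran from 8.11 ± 2.60 FPKM in LP1 (SD, n = 3) over HP1, HP2, L and H to 3.87 ± 1.10 FPKM in LP2 (SD, n = 3), and the SD in H was 91.1% of its mean.

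TPK Nitab4.5_0003491g0060 stood at 3.01, 9.24 and 8.26 FPKM in HP1, at 3.75, 4.37 and 7.76 in H, and at 4.79, 5.84 and 8.4 in HP2. The low and the high libraries of the G70 cross were the same as for the other TPK gene, with a narrower gap. In the K326 cross it stood at 6.19, 7.41 and 4.51 FPKM in LP1, at 7.03, 3.74 and 4.78 in L, and at 2.92, 3.96 and 2.68 in LP2. LP1 again lay wholly above LP2. The group means ran from 6.84 ± 3.35 FPKM in HP1 (SD, n = 3) over HP2, LP1, H and L to 3.19 ± 0.680 FPKM in LP2 (SD, n = 3). For both TPK genes neighbours in the order of means overlapped in their values.

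**Figure D1:**
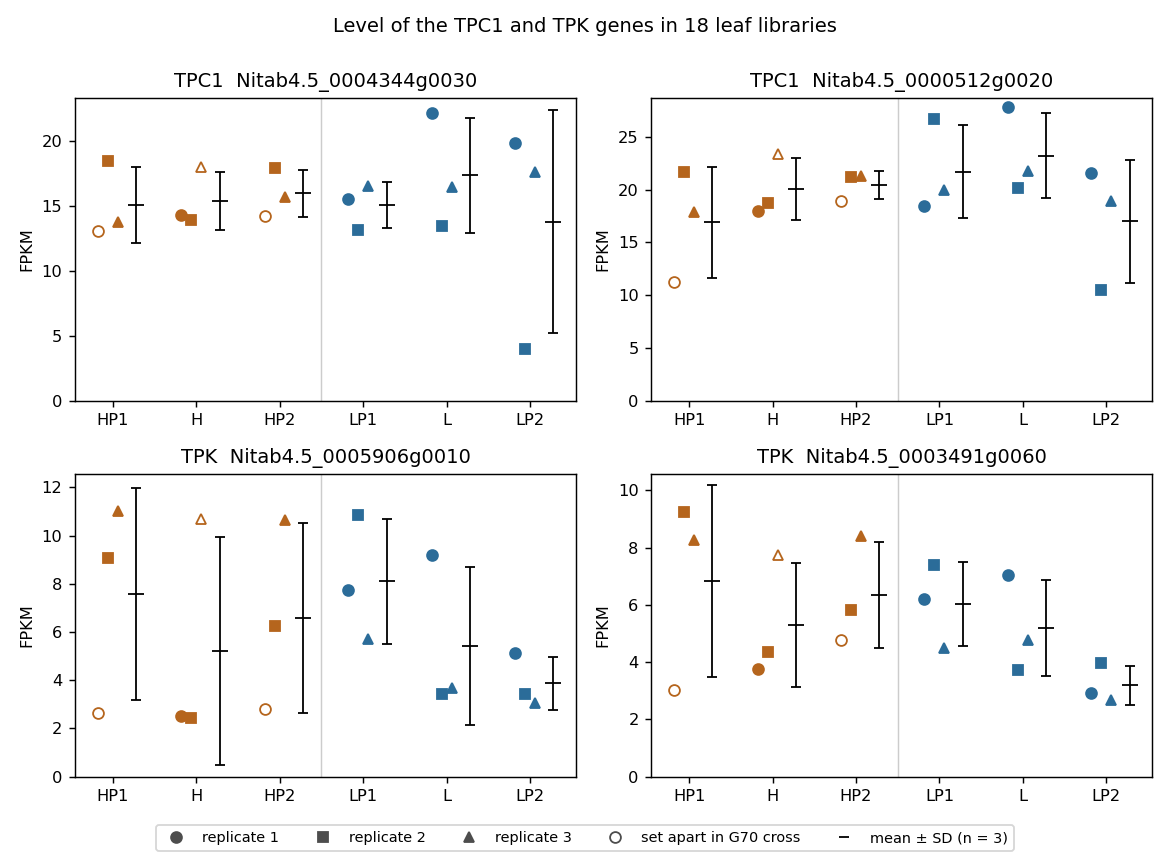
FPKM of the TPC1 and TPK genes (vertical axes) in each library of the 6 groups (horizontal axes), with brown symbols for the G70 cross, blue symbols for the K326 cross, open symbols for the libraries set apart, and bars for mean ± SD (n = 3). The TPC1 genes overlap among all neighbouring groups, with a low value of 3.97 FPKM for Nitab4.5_0004344g0030 in LP2 replicate 2, whereas TPK Nitab4.5_0005906g0010 splits into libraries at 2.44 to 2.82 FPKM and libraries at 6.25 to 11.04 FPKM within each group of the G70 cross.

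The spread between replicates set how small a difference could be resolved. The pooled SD within groups was 0.74 on the log2(FPKM + 1) scale for TPK Nitab4.5_0005906g0010, above that of 87.9% of the 4674 tested genes with a mean level within a factor of 1.25. It was 0.45 for TPK Nitab4.5_0003491g0060, above 59.5% of such genes. It was 0.51 for TPC1 Nitab4.5_0004344g0030, above 65.0%, and 0.33 for TPC1 Nitab4.5_0000512g0020, above 34.2%. The value of TPC1 Nitab4.5_0004344g0030 rests largely on LP2, with its low replicate 2. In FPKM the SD of this gene was 62.2% of its mean in LP2 and from 11.5% to 25.5% in the other groups. The first TPK gene was therefore among the more variable genes of its level, and the second TPC1 gene among the less variable ones.

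Whether the H hybrid expressed these channels differently from its parents was tested over all 9 libraries of the G70 cross. A call required an adjusted p no higher than 0.05 (limma, Benjamini-Hochberg over all genes tested) together with a change by log2 1 or more, up or down, measured on log2(FPKM + 1). This scale understates changes of genes with low levels. The hybrid was compared with each parent and with the mid-parent, the mean of both parents on the log2 scale. The study's methods describe a block design in the field with leaves mixed from plants of each plot, but neither they nor the labels tie a library to a plot, and the p-values measure the spread between these libraries. In bulk leaf, fewer cells of a type cannot be told apart from less RNA per cell.

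Over all 9 libraries none of the 4 genes was called between H and its parents. This was 0 of 4 against HP1, where 0.488% of the 33991 genes tested were called, 0 of 4 against HP2 (0.421% called) and 0 of 4 against the mid-parent (0.482% called). At an unadjusted p of at most 0.05 of any size the count was again 0 of 4, beside 4.14%, 3.69% and 4.17% of all genes in these comparisons. Relative to the mid-parent, the log2 fold change was -0.0094 (SE 0.17) for TPC1 Nitab4.5_0004344g0030 and 0.12 (SE 0.21) for TPC1 Nitab4.5_0000512g0020. For TPK Nitab4.5_0005906g0010 it was -0.47 (SE 0.55, 95% interval from -1.73 to 0.79, adjusted p = 1.00 with limma). For TPK Nitab4.5_0003491g0060 it was -0.25 (SE 0.34, interval from -1.03 to 0.53). The intervals of the TPC1 genes, from -0.40 to 0.38 and from -0.36 to 0.60, left out a change of log2 1 in either direction, whereas those of the TPK genes reached past a log2 of -1. The median of the 4 genes was -0.13, beside -0.04 over all genes tested. The parents did not differ beyond their spread either, with 0 of 4 genes called between HP1 and HP2 (0.462% called over all genes).

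Without the libraries set apart, TPK Nitab4.5_0005906g0010 was lower in H than in both parents. The values left were 9.06 and 11.04 FPKM in HP1, 2.5 and 2.44 in H, and 6.25 and 10.66 in HP2, so that H lay wholly below its parents. This held for 2 of the 4 genes, both TPK, and for 28% of the 34146 genes tested. The log2 fold change was -1.67 against HP1 (SE 0.26, adjusted p = 0.0222 with limma), -1.41 against HP2 (SE 0.26, adjusted p = 0.0314) and -1.54 against the mid-parent (SE 0.23, adjusted p = 0.0132). It was thus called in each of these comparisons, the only one of the 4 genes to be so. The calls were made in fits that called 7.05%, 6.59% and 8.54% of the genes tested, respectively, and 4.32%, 3.87% and 4.76% as lower. The libraries left out were those unlike the rest of their group, a choice that by itself narrows the spread within groups. It also left both H libraries on the positive side of the first principal component and all 4 libraries of the parents on the negative side, so that for a gene that follows this split the choice bears on the difference as well, and group and side cannot be told apart in these fits.

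TPK Nitab4.5_0003491g0060 lay below both parents as well in these libraries, by less. The values left were 9.24 and 8.26 FPKM in HP1, 3.75 and 4.37 in H, and 5.84 and 8.4 in HP2. The log2 fold change was -0.95 against HP1 (SE 0.22, adjusted p = 0.0488 with limma) and -0.81 against the mid-parent (SE 0.19, adjusted p = 0.0387), both short of the fold threshold. Against HP2 it was -0.67 (SE 0.22, adjusted p = 0.113). The gene was therefore not called, and its adjusted p against HP1 and the mid-parent passed the threshold only with the values as deposited or with a smaller pseudocount. After quantile normalization it was 0.0739 against HP1 and 0.0611 against the mid-parent.

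The TPC1 genes were not called in H without the libraries set apart. Relative to the mid-parent they were at a log2 fold change of -0.20 (SE 0.18, adjusted p = 0.465 with limma) for Nitab4.5_0004344g0030 and -0.15 (SE 0.16, adjusted p = 0.553) for Nitab4.5_0000512g0020. Their intervals, from -0.63 to 0.23 and from -0.54 to 0.24, left out a fall by log2 1. The median of the 4 genes against the mid-parent was -0.50, beside -0.14 over all genes tested.

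The call on the TPK gene depended on which libraries were kept. For these 4 genes the authors' own group means, deposited beside the values per library, equal within 0.011 FPKM the average of only 2 libraries in each group of the G70 cross. They rest on replicates 1 and 2 in both HP1 and H, and on replicates 2 and 3 in HP2. They give TPK Nitab4.5_0005906g0010 at 5.84 FPKM in HP1, 2.47 in H and 8.46 in HP2. Over these 6 libraries, which keep HP1 replicate 1 in place of replicate 3, the log2 fold change of this gene relative to the mid-parent was -1.10 (SE 0.44, unadjusted p = 0.0428, adjusted p = 0.609 with limma). None of the 4 genes was called there (0.134% of genes called against the mid-parent, 0.199% against HP1 and 0.149% against HP2). This choice of libraries was added after the data were seen. With 1 library left out at a time, its value relative to the mid-parent was between -1.06 (without H replicate 3) and -0.17 (without H replicate 2), and the gene was called in none of these fits.

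**Figure D2:**
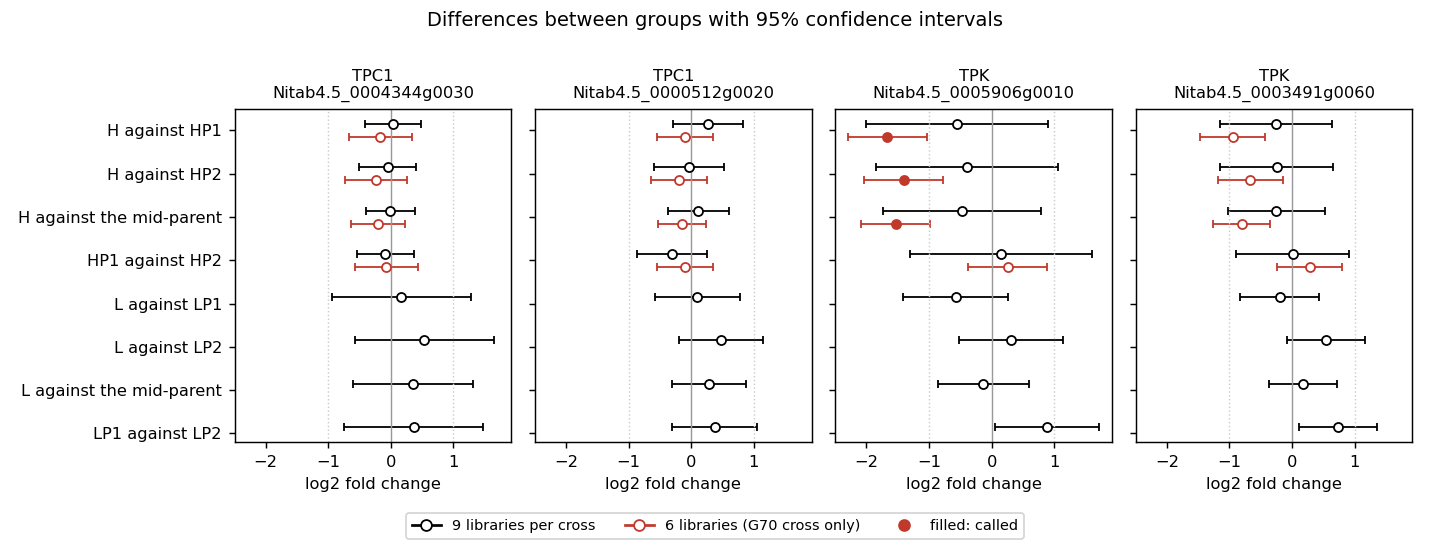
Log2 fold changes (horizontal axes, with 95% intervals) of the 4 genes in the comparisons of each cross (rows), with black symbols for the 9 libraries of a cross and red symbols for the 6 libraries of the G70 cross that remain without those set apart. TPK Nitab4.5_0005906g0010 is called (filled symbols) only among the red values, at -1.67, -1.41 and -1.54 in H against HP1, HP2 and the mid-parent, and no black symbol is filled.

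The levels of both TPK genes followed the split of the libraries on the first principal component rather than the groups. TPK Nitab4.5_0005906g0010 lay between 2.44 and 2.82 FPKM in the 4 libraries on the positive side and between 6.25 and 11.04 FPKM in the other 5. TPK Nitab4.5_0003491g0060 lay between 3.01 and 4.79 FPKM and between 5.84 and 9.24 FPKM, respectively. This order, with each of the 4 libraries below each of the other 5, was found in 17.8% of all 33991 genes tested, and the opposite order in 9.27%. Neither TPC1 gene showed it: Nitab4.5_0004344g0030 was at 13.07 to 14.27 FPKM against 13.78 to 18.43 FPKM, and Nitab4.5_0000512g0020 at 11.23 to 18.95 FPKM against 17.86 to 23.41 FPKM. The 4 and 5 libraries were defined from the data, so these ranges are a description and were not tested.

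Within each group of the G70 cross the library set apart moved the TPK genes to the other side. For TPK Nitab4.5_0005906g0010 the log2 difference from the mean of the other libraries of its group was -1.60 in HP1 replicate 1, 1.75 in H replicate 3 and -1.27 in HP2 replicate 1. Differences of this sign and of at least log2 1 in all 3 groups were found in 991 genes, 2.92% of those tested. The opposite signs at this size were found in 1046 genes (3.08%). For TPK Nitab4.5_0003491g0060 the log2 differences were -1.28, 0.79 and -0.47. Those of the TPC1 genes had the same signs and were smaller, at -0.27, 0.33 and -0.22 for Nitab4.5_0004344g0030 and at -0.76, 0.34 and -0.16 for Nitab4.5_0000512g0020. The part of this split in the difference between H and its parents was not tested.

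**Figure D3:**
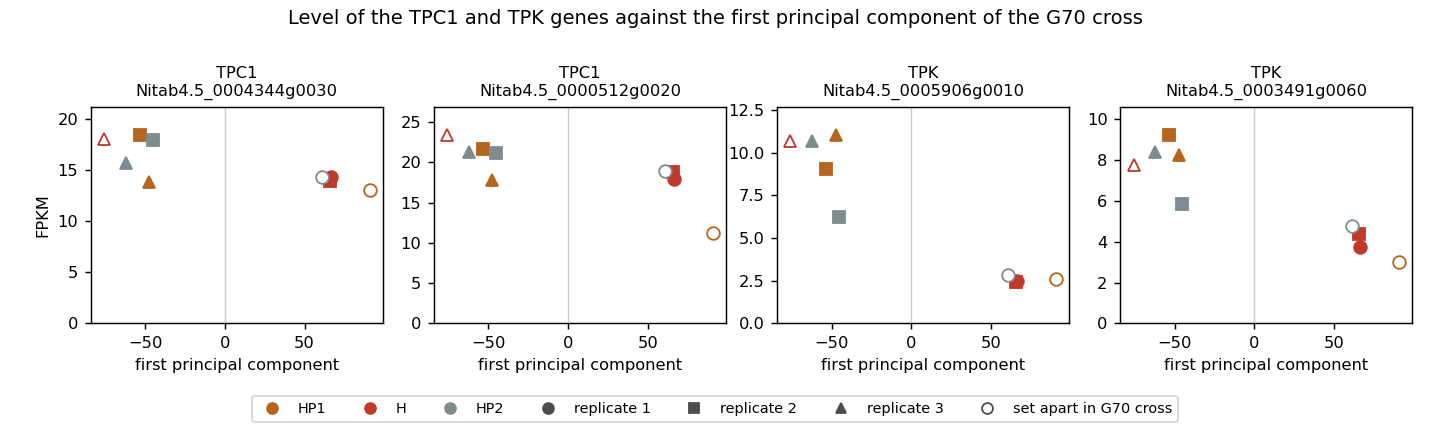
FPKM of the 4 genes (vertical axes) against the first principal component of the G70 cross (horizontal axes, in units of log2 FPKM + 1, computed without the K+ genes), 1 point per library, with open symbols for the libraries set apart. Both TPK genes are low in the 4 libraries at positive values, at 2.44 to 2.82 FPKM for Nitab4.5_0005906g0010, and high in the other 5, whereas the TPC1 genes overlap between the sides.

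In the K326 cross the L hybrid did not differ from its parents beyond the spread between libraries. None of the 4 genes was called against LP1 (0.17% of the 33493 genes tested were called), LP2 (0.266%) or the mid-parent (0.206%), and the count at an unadjusted p of at most 0.05 was 0 of 4 as well (12.6%, 6.58% and 9.35% of all genes). Against the mid-parent the log2 fold change was 0.35 (SE 0.43) for TPC1 Nitab4.5_0004344g0030 and 0.29 (SE 0.26) for TPC1 Nitab4.5_0000512g0020. It was -0.13 (SE 0.32, interval from -0.86 to 0.59) for TPK Nitab4.5_0005906g0010 and 0.17 (SE 0.24, interval from -0.37 to 0.71) for TPK Nitab4.5_0003491g0060. A fall of either TPK gene by log2 1 lay outside these intervals. The median of the 4 genes was 0.23, beside 0.13 over all genes tested. The value of TPC1 Nitab4.5_0004344g0030 against LP2 was 0.53 (SE 0.49) with all libraries and -0.13 without LP2 replicate 2.

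The parents of the K326 cross were further apart in the TPK genes than in the TPC1 genes, without a call. TPK Nitab4.5_0005906g0010 was at 5.71 to 10.87 FPKM in LP1 and at 3.07 to 5.13 FPKM in LP2, a log2 fold change of 0.89 (SE 0.37, unadjusted p = 0.0404, adjusted p = 0.436 with limma). TPK Nitab4.5_0003491g0060 was at 4.51 to 7.41 FPKM in LP1 and at 2.68 to 3.96 FPKM in LP2, a log2 fold change of 0.74 (SE 0.28, unadjusted p = 0.0252, adjusted p = 0.413). Both TPK genes thus had an unadjusted p of at most 0.05, as did 11.3% of all genes tested, and 0.2% were called. The median of this comparison over all genes was 0.20. The TPC1 genes differed by 0.36 (SE 0.49) and 0.38 (SE 0.30). The first principal component of the K326 cross, computed in the same way, held 46.0% of the variance. All LP1 libraries, L replicate 1 and LP2 replicate 1 were on its positive side, and LP2 replicate 2 was furthest out, at -172. TPK Nitab4.5_0005906g0010 was at 5.13 to 10.87 FPKM on that side, and at 3.07 to 3.66 FPKM on the other. TPK Nitab4.5_0003491g0060 overlapped between the sides. The part of this component in the difference between LP1 and LP2 was not tested.

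GDH11 was measured in both crosses, which shows how far libraries of 1 genotype differed. In a fit over all 18 libraries the 4 genes were all estimated higher in HP2 than in LP2, and none was called (0.00286% of the 34960 genes tested were called). For the TPC1 genes this direction rested on LP2 replicate 2. Without it the log2 fold change was -0.22 for Nitab4.5_0004344g0030 and 0.014 for Nitab4.5_0000512g0020. With all libraries the largest difference was that of TPK Nitab4.5_0003491g0060, at 4.79 to 8.4 FPKM in HP2 and 2.68 to 3.96 FPKM in LP2, with a log2 fold change of 0.79 (SE 0.35, unadjusted p = 0.0382, adjusted p = 0.612 with limma). It was the only one of the 4 genes with an unadjusted p of at most 0.05, beside 5.69% of all genes. HP2 lay wholly above LP2 in 7.46% of all genes. Leaving out the libraries set apart gave 0.95 (SE 0.27, adjusted p = 0.507), and that of TPK Nitab4.5_0005906g0010 was 0.94 (SE 0.38, adjusted p = 0.507). Between LP1 and LP2, a comparison that shares the LP2 libraries, the log2 fold change was 0.74 for Nitab4.5_0003491g0060 and 0.89 for Nitab4.5_0005906g0010. The median over all genes tested was 0.21 with all libraries.

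The difference between the effects in H and L was tested directly, as the deviation of H from its mid-parent minus that of L. Over all 18 libraries it was -0.34 (SE 0.68, adjusted p = 0.970 with limma) for TPK Nitab4.5_0005906g0010 and -0.42 (SE 0.43, adjusted p = 0.968) for TPK Nitab4.5_0003491g0060. For the TPC1 genes it was -0.36 (SE 0.49) and -0.17 (SE 0.34), and 0 of 4 genes were called (0.083% of genes called). In the 15 libraries left without those set apart it was -1.40 (SE 0.46, unadjusted p = 0.0097, adjusted p = 0.313) and -0.98 (SE 0.34, unadjusted p = 0.0125, adjusted p = 0.337) for the TPK genes, which again were not called (0.136% of genes called). The hybrids' effects on the TPK genes were therefore not shown to differ at the adjusted threshold. In these 15 libraries H and its parents were on opposite sides of the first principal component of their cross. Group and side thus cannot be told apart in the H part of this difference. The median of this difference over all genes tested was itself below 0, at -0.17 with all 18 libraries and -0.26 over the 15. A test of any difference among the 6 groups gave adjusted p between 0.911 and 0.936 for the 4 genes (limma F test, 1.29% of genes called). Over these 15 libraries it gave 0.157 and 0.159 for the TPK genes (1.53% called).

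The copies of a pair can share reads, and RSEM may divide such reads between them, so the sum of each pair was tested in place of the copies. The TPK pair held 14.4 ± 7.62 FPKM in HP1, 10.5 ± 6.89 in H and 12.9 ± 5.77 in HP2 (SD, n = 3), and 14.1 ± 4.03 in LP1, 10.6 ± 4.91 in L and 7.06 ± 1.18 in LP2 (SD, n = 3). It was called in none of the 10 comparisons with all libraries. In the 6 libraries kept, its log2 fold change in H was -1.40 against HP1 (SE 0.24, adjusted p = 0.0273 with limma), -1.11 against HP2 (SE 0.24, adjusted p = 0.0452) and -1.25 against the mid-parent (SE 0.21, adjusted p = 0.0177), each called. With the copies fitted singly, these comparisons called 7.05%, 6.59% and 8.54% of all genes tested, respectively. Here too group and side of the first principal component cannot be told apart, and both TPK copies followed that split. The TPC1 pair held 32.0 ± 7.90 FPKM in HP1, 35.4 ± 5.17 in H and 36.4 ± 2.97 in HP2 (SD, n = 3), and was called in no comparison with either set of libraries.

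Within each pair the copies were expressed at similar levels. TPC1 Nitab4.5_0004344g0030 made up from 27.5% (LP2 replicate 2) to 53.8% (HP1 replicate 1) of the TPC1 pair. Its mean share was 43.5% ± 0.845 in H (SD, n = 3) and 45.8% ± 4.19 in the 6 libraries of its parents (exact permutation test, two-sided, p = 0.381, adjusted over 4 tests 0.603). In L it was 42.5% ± 2.23, against 41.3% ± 8.78 in the parents (exact permutation p = 0.857, adjusted 0.857). The balance of the TPC1 copies in the hybrids was thus within that of their parents.

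TPK Nitab4.5_0005906g0010 made up 44.6% ± 11.8 of the TPK pair in H (SD, n = 3) and 49.7% ± 7.33 in its parents (exact permutation p = 0.452, adjusted 0.603). With 1 library left out at a time the difference was between -11.7 percentage points (without H replicate 3) and -0.68 (without H replicate 2). In L it was 49.3% ± 6.79, against 55.7% ± 5.86 in the parents (exact permutation p = 0.238, adjusted 0.603), a difference between -10.2 points (without L replicate 1) and -3.50 (without L replicate 3). In the G70 cross the share was lower where the pair was low. It was 46.5% in HP1 replicate 1, 40% and 35.8% in H replicates 1 and 2, and 37.1% in HP2 replicate 1, and it was between 49.5% and 57.9% in the other 5 libraries. The gap between low and high libraries was thus wider for Nitab4.5_0005906g0010 than for Nitab4.5_0003491g0060, a description for which no test was made.

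**Figure D4:**
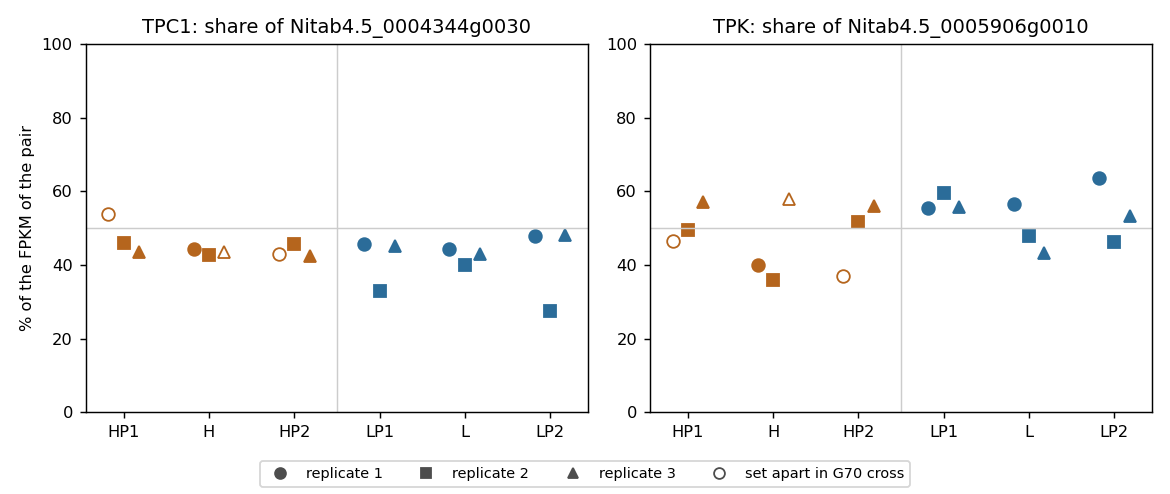
Share of the first copy in the summed FPKM of the TPC1 pair (left) and of the TPK pair (right), in percent (vertical axes), for each library of the 6 groups (horizontal axes), with open symbols for the libraries set apart. The TPC1 share lies between 42.5% and 53.8% in the G70 cross, and the TPK share lies between 35.8% and 46.5% in HP1 replicate 1, H replicates 1 and 2 and HP2 replicate 1 and between 49.5% and 57.9% in the other 5 libraries.

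The remaining 22 genes of K+ transport and its regulation that the study named were read beside the channels, and 21 of them passed the filter in both crosses. With all libraries 0 of 21 were called with limma in H or L against a parent or the mid-parent, and between 0 and 4 had an unadjusted p of at most 0.05. In these comparisons between 0.17% and 0.488% of all genes tested were called, and between 3.69% and 12.6% had such an unadjusted p. The highest count and the highest share were both in L against LP1. Over the libraries kept 4 were lower and 0 higher in H than in HP1, 3 were lower and 0 higher than in HP2, and 4 were lower and 0 higher than the mid-parent. Of all genes tested 4.32%, 3.87% and 4.76% were called lower in these comparisons and 2.72%, 2.72% and 3.77% higher. Those called against the mid-parent were both CIPK6 genes, CIPK5 Nitab4.5_0000462g0210 (-1.19) and GORK Nitab4.5_0006940g0020 (-1.14). CIPK kinases phosphorylate ion channels together with calcium-sensing CBL proteins, and in Arabidopsis GORK is the outward K+ channel of guard cells. In this comparison the median of the K+ genes, the channels included, was -0.38, beside -0.14 over all genes tested. Over the libraries kept, group and side of the first principal component cannot be told apart for these genes either.

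The CIPK6 genes were split among the libraries of the G70 cross in the same directions as the TPK genes. These directions were not particular to them. The GORK genes, AKT2 Nitab4.5_0000816g0130, the KAT1/2 channel genes that passed the filter and the TPC1 genes shared them. The KEA antiporter, NHX1 and CIPK5 genes and AKT2 Nitab4.5_0001744g0070 did not. In Arabidopsis, CIPK6 acts on the phloem channel AKT2. CIPK6 Nitab4.5_0006408g0010 stood at 23.76, 106.94 and 128.86 FPKM in HP1, at 34.38, 38.27 and 181.97 in H, and at 61.53, 79.48 and 116.47 in HP2. Its log2 difference between the library set apart and the others of the group was -2.26 in HP1, 2.29 in H and -0.64 in HP2, the last of these smaller than for TPK Nitab4.5_0005906g0010 (-1.27). Its log2 fold change in H against the mid-parent was -0.28 (SE 0.66) with all libraries and -1.53 (SE 0.22, adjusted p = 0.0127 with limma) without those set apart. CIPK6 Nitab4.5_0004815g0040 was at -0.0028 (SE 0.70) and -1.35 (SE 0.23, adjusted p = 0.0191). In this copy the log2 differences of the libraries set apart were -2.23 in HP1, 2.23 in H and -1.405 in HP2. Each was larger in size than for TPK Nitab4.5_0005906g0010.

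The NHX1 genes, which load the vacuole, were not called in either direction. NHX1 Nitab4.5_0002455g0040 stood at 22.96, 16.56 and 15.52 FPKM in HP1, at 21.62, 17.62 and 13.32 in H, and at 20.79, 13.86 and 14.43 in HP2. Here HP1 replicate 1 and HP2 replicate 1 were high and H replicate 3 was low, opposite to the TPK genes. Against the mid-parent the log2 fold change in H was 0.011 (SE 0.22) for this gene and 0.17 (SE 0.31) for NHX1 Nitab4.5_0003067g0080. Without the libraries set apart it was 0.35 (SE 0.16, adjusted p = 0.181 with limma) and 0.64 (SE 0.27, adjusted p = 0.154).

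The genes most alike in pattern were sought over the 18 libraries among those with a mean of at least 10 FPKM, by Pearson's r of log2(FPKM + 1). These r describe libraries that share groups and the split above, and they carry no test. Those of the TPC1 genes also rest in part on LP2 replicate 2, in which Nitab4.5_0004344g0030 stood at 3.97 FPKM. The most alike gene was Nitab4.5_0004263g0040 (r = 0.966) for TPC1 Nitab4.5_0004344g0030 and Nitab4.5_0002367g0110 (r = 0.937) for TPC1 Nitab4.5_0000512g0020. It was Nitab4.5_0001526g0010 (r = 0.956) for TPK Nitab4.5_0005906g0010 and Nitab4.5_0001703g0030 (r = 0.922) for TPK Nitab4.5_0003491g0060. The TPK copies resembled each other (r = 0.858) more than the TPC1 copies did (r = 0.745). Nitab4.5_0005906g0010 ranked as number 10 of 13870 genes by likeness to Nitab4.5_0003491g0060, and the latter as number 290 by likeness to the former, whereas the TPC1 copies ranked at 2128 and 1299 of 13869 for each other. Among the other 25 K+ genes each TPK gene was most like the other TPK gene, followed for both by GORK Nitab4.5_0006940g0020 (r = 0.806 and 0.822). TPC1 Nitab4.5_0004344g0030 was most like KEA5 Nitab4.5_0003984g0010 (r = 0.846), a K+/proton antiporter, and TPC1 Nitab4.5_0000512g0020 was most like CIPK6 Nitab4.5_0006408g0010 (r = 0.870). Without LP2 replicate 2, a choice made after the data were seen, r fell to 0.837 between TPC1 Nitab4.5_0004344g0030 and Nitab4.5_0004263g0040, to 0.278 between this TPC1 gene and KEA5, to 0.536 between the TPC1 copies and to 0.778 between TPC1 Nitab4.5_0000512g0020 and CIPK6. Between the TPK copies it was 0.853.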

How the data were processed

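The authors trimmed the reads, mapped them to the genome of K326 and quantified genes with RSEM. The study's methods name TopHat2 as the aligner, the submitters' processing notes name HISAT2, StringTie and RSEM, and versions are not given in the sources used here. The authors deposited FPKM values for each library, rounded to hundredths and described as raw counts; the decimals and the sums per library show that they are not counts. Tables of group means are used here only as the authors' means. FPKM keep no number of reads per gene, so the depth behind a value is unknown and no counting interval was computed.

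For each gene, log2(FPKM + 1) was modelled as deposited with limma 3.58.1 (R 4.3.3), using its moderated test with a trend of variance on intensity. Benjamini-Hochberg adjustment ran over every gene reaching 1 FPKM in 3 libraries or more (2 or more where a group had 2). Each cross was fitted by itself on its 9 libraries, and a joint fit of all 18 gave HP2 against LP2 and the difference between the effects. The count test of the study needs counts and was not run. All 4 channel genes are named. Of the other K+ genes, the NHX1 and CIPK6 pairs and those called against the mid-parent are named. The most alike gene of each channel gene is named by identifier. The genes and lists were chosen with earlier results of these data known, the choice of the libraries left out included. Alternatives were a pseudocount of 0.1, no filter, quantile and median-of-ratios scaling, unadjusted p, a replicate block, other sets of libraries and each library left out in turn. Only the limma test of H against the mid-parent, over the 9 libraries of the G70 cross, was tried on simulated data. The noise there was independent between libraries, without the split described above.

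How far libraries of the same number deviated together from the means of their groups was correlated, and r was above 0.1 in all 3 pairs of HP1 and HP2 (0.579, 0.271 and 0.482), LP1 and LP2 (0.251, 0.213 and 0.289) and L and LP2 (0.537, 0.248 and 0.228), and not in all pairs of the other groups compared. The field design had replicate blocks, but the replicate numbers are not said to mark them, and no block was used in the reported fits. A RefSeq gene table of assembly ASM71507v2 matched 0 of the identifiers, and no positions or sequences are printed.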

Additional observations from a re-analysis of the deposited data

How the results depend on the processing

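The spread between 3 libraries per group limits the precision, and with 2 libraries per group the smaller spread rests partly on which libraries were left out. Leaving out HP1 replicate 1, H replicate 3 and HP2 replicate 1 moved the number of the 4 genes called from 0 to 1 in H against HP1, HP2 and the mid-parent, and the number of calls on pair sums from 0 to 3. Over the libraries of the authors' group means the number was 0 in these comparisons. Over the libraries kept, TPK Nitab4.5_0005906g0010 was called under quantile normalization, median-of-ratios scaling and a pseudocount of 0.1 (-1.29 to -1.97), choices added after the data were seen. TPK Nitab4.5_0003491g0060 was called there only against HP1 with a pseudocount of 0.1 (-1.09, adjusted p = 0.0495 with limma). Quantile normalization and median-of-ratios scaling moved the median of all genes by -0.19 and -0.23 in L against LP2, by -0.10 and -0.13 in L against the mid-parent, by -0.19 and -0.19 in LP1 against LP2, by -0.20 and -0.21 in HP2 against LP2, and by 0.13 and 0.18 in the difference of effects. Over the libraries kept they moved it by 0.11 and 0.16 in H against HP1, and median-of-ratios scaling by 0.12 against HP2 and 0.14 against the mid-parent. All other settings, adjusted p without a fold threshold (added later) included, left 0 of the 4 genes called in each comparison.

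Some uncalled values changed sign; the cause was not tested. TPK Nitab4.5_0003491g0060 was at -0.0080 in HP1 against HP2 with a pseudocount of 0.1. TPC1 Nitab4.5_0004344g0030 was at 0.011 in H against the mid-parent after quantile normalization. After median-of-ratios scaling the TPC1 genes were at 0.039 and 0.056 in H against HP2, TPC1 Nitab4.5_0004344g0030 at 0.051 against the mid-parent, and TPC1 Nitab4.5_0000512g0020 at 0.046 in the difference of effects. Without the libraries set apart the TPC1 genes were at -0.17 and -0.10 in H against HP1, and TPC1 Nitab4.5_0000512g0020 at -0.15 against the mid-parent. Over the libraries of the authors' means TPC1 Nitab4.5_0004344g0030 was at -0.13 in H against HP1, and the TPK genes at -0.61 and -0.32 in HP1 against HP2.

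With each library left out in turn, 0 of the 4 genes were called in every comparison. Values that changed sign are given as ranges. TPC1 Nitab4.5_0004344g0030 ranged from -0.08 to 0.18 in H against HP1, from -0.16 to 0.029 against HP2, from -0.12 to 0.062 against the mid-parent, from -0.23 to 0.0047 in HP1 against HP2, from -0.011 to 0.33 in L against LP1, from -0.13 to 0.91 in L against LP2, from -0.30 to 0.74 in LP1 against LP2 and from -0.22 to 0.81 in HP2 against LP2. TPC1 Nitab4.5_0000512g0020 ranged from -0.15 to 0.035 in H against HP2, from -0.0099 to 0.21 in H against the mid-parent and from -0.032 to 0.25 in L against LP1. Its value in H against HP1 ranged from 0.016 to 0.46 and kept its sign with 1 library left out. TPK Nitab4.5_0005906g0010 ranged from -0.28 to 0.68 in HP1 against HP2, from -0.079 to 0.52 in L against LP2, from -0.52 to 0.081 in L against the mid-parent and from -0.92 to 0.050 in the difference of effects (-1.40 without the 3 libraries set apart). TPK Nitab4.5_0003491g0060 ranged from -0.24 to 0.44 in HP1 against HP2 and from -0.036 to 0.34 in L against the mid-parent. The TPC1 share in L minus that of its parents ranged from -1.51 to 2.62 percentage points.

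With a replicate block over all libraries 0 of the 4 genes were called in every comparison. The block was not fitted to the libraries kept, to the pair sums or to the other K+ genes. In the block fit TPK Nitab4.5_0005906g0010 was at -0.47 in H against the mid-parent (adjusted p = 0.999 with limma). The comparisons with the mid-parent use all groups of a cross, so a fit over only the groups compared is the same fit. Alternatives that need counts could not be run on FPKM.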
